A study of Mus musculus with 6 samples.

Results

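The mitochondrial ribosomal protein genes were taken as every row of a deposited peak table whose gene symbol begins with Mrpl or Mrps and a digit. The rule found 78 peaks of 62 genes among 17901 peaks of 11191 gene symbols. The peaks mark H3K9ac, acetylated lysine of histone H3, a mark of active regulatory DNA. The mark was mapped by CUT&RUN, in which an antibody-tethered nuclease releases the DNA under a chromatin protein for sequencing, in endothelial cells isolated from mouse lung. There were 3 libraries of CSE-KO, Cre-positive mice and 3 of WT, Cre-negative mice. CSE is cystathionine gamma-lyase, the product of Cth, an enzyme that makes cysteine and hydrogen sulfide. The promoter that drives Cre, the targeted allele, whether WT mice carry it, and the age and strain are not stated in the labels. Nor is it stated that each library is a different animal, and the p-values reflect library-to-library spread only, part of which may be technical.

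Mitochondria have ribosomes of their own, which translate the few messages of mitochondrial DNA into core subunits of the respiratory chain and ATP synthase. All their proteins are encoded in the nucleus and imported. Many descend from bacterial ribosomal proteins, while others were added after the mitochondrion arose and have no bacterial counterpart. In mammals the factors NRF1, GABP (an ETS family factor) and YY1 are known regulators of nuclear genes for mitochondria, and their sites are common in promoters of this kind.

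The promoters printed next show the letters that lie before the start of members described below, with the motifs found in them. Windows of 150 bases before the start were read from RefSeq on GRCm38.p6 and are written 5′ to 3′ along the gene. Capitals mark matches on either strand to the ETS motif CCGGAAG, the YY1 motif AAGATGGCG or the NRF1 motif, which reads GCGC, any base, then TGCGC. Mrps26 and Mrpl3 had the smallest unadjusted p of all members, and Mrpl58 was also among the smallest. The window of Mrpl45 holds a pair of NRF1 matches, and those of Mrpl9 and Mrpl36 show single NRF1 and YY1 matches. Mrpl24 and Mrpl47, which also lay among the smallest p, are shown because none of these motifs is in their windows.
Mrps26, chr2:130563607-130563756, plus strand: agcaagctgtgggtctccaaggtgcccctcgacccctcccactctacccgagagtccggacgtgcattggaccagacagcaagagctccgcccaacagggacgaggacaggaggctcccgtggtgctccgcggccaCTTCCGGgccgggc
Mrpl3, chr9:105053118-105053267, plus strand: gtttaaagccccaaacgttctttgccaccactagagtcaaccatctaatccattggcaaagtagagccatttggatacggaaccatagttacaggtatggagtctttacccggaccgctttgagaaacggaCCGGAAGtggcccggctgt
Mrpl58, chr11:115403602-115403751, plus strand: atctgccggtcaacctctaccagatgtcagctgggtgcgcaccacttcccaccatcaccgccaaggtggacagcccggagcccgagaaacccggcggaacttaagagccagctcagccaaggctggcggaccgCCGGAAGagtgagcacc
Mrpl45, chr11:97315566-97315715, plus strand: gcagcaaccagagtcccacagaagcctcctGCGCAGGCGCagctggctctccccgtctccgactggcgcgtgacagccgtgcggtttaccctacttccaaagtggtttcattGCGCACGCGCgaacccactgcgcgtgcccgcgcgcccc
Mrpl9, chr3:94443186-94443335, plus strand: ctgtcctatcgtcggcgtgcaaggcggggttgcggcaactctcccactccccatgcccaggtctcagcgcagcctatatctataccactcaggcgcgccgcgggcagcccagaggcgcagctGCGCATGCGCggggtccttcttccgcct
Mrpl36, chr13:73330859-73331008, plus strand: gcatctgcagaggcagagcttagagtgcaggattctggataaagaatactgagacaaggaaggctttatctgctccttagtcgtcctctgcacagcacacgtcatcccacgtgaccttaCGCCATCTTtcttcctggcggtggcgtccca
Mrpl24, chr3:87919394-87919543, plus strand: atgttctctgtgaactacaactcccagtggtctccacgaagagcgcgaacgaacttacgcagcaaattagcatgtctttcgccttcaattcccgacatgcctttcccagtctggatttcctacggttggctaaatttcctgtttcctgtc
Mrpl47, chr3:32736756-32736905, minus strand: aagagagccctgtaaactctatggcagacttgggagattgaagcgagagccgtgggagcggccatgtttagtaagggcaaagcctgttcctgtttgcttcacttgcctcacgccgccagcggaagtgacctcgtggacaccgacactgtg

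In these windows the ETS match began at position -14 in Mrps26, -19 in Mrpl3 and -17 in Mrpl58, counted back from the start, where -1 is the base before it. The NRF1 matches began at -120 and -38 in Mrpl45 and at -28 in Mrpl9, and the YY1 match of Mrpl36 began at -31. In Mrps26 the marked match reads CTTCCGG, the ETS motif on the other strand, and in Mrpl36 the YY1 motif likewise stands on the other strand. Both marked NRF1 matches of Mrpl45 are on the other strand too, and that of Mrpl9 reads the same on both strands. The H3K9ac promoter peaks of Mrps26, Mrpl3, Mrpl58, Mrpl45 and Mrpl36 begin after these windows, so the marked matches lie outside those peaks. The match of Mrpl9 lies inside its peak. Matches that cross or follow the start are not marked. These are NRF1 matches at -2 and 5 in Mrps26 and at 16 in Mrpl45, and an ETS match at -2 in Mrpl58.

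A RefSeq promoter entry, from 250 bases before to 50 after the start, was found for 54 of the 62 genes. ETS motifs stood in 19 of the 54 (35.2%), against 23.8% of 5929 genes with a tested promoter peak, 12.9% of 17492 coding genes and 9.93% of all 27025 genes in the table. NRF1 motifs stood in 10 members (18.5%), against 13.6% of genes with a peak, 7.17% of coding genes and 5.19% of all genes. YY1 motifs stood in 7 members (13.0%), against 4.13%, 2.14% and 1.64% in the same 3 sets. At least 1 of the 3 motifs was in 31 members (57.4%), against 37.0% of genes with a peak and 20.0% of coding genes. Among 67 cytosolic ribosomal protein genes, ETS motifs stood in 24 (35.8%), about the share of members, NRF1 motifs in 5 (7.46%) and YY1 motifs in 4 (5.97%). These shares are descriptions, and no test of their differences was made.

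General promoter elements did not follow that order. The SP1 motif GGGCGG was in 24 members (44.4%), against 72.2% of genes with a peak, 49.2% of coding genes and 38.2% of all genes. CCAAT was in 23 members (42.6%), against 43.8% of genes with a peak, 42.3% of coding genes and 41.1% of all genes. TATAAA was in 4 members (7.41%), against 7.86%, 14.8% and 15.7% in the same sets. The median GC content was 57.9% in members and 61.0% in genes with a peak. The shares are descriptions without a test, both strands were searched, overlapping matches of different motifs count for each, and a match is a run of letters, not a bound site.

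H3K9ac lay mainly just inside the genes. Of the 78 peaks, 62 were promoter peaks, with a centre within 1 kb of the start or an annotation as promoter, and 60 genes had one. The centre lay downstream of the start in 57 of the 62. Of 54 promoter peaks whose gene has a start in the RefSeq table, 35 covered that start, and the other peaks began beyond it or ended before it. Peaks were 257 to 1744 bp wide, with a median of 865 bp. The deposited annotation placed 23 peaks at a promoter, 30 in introns, 12 in exons, 5 between genes, 3 at transcription ends, 2 in 3′ UTRs, 2 in 5′ UTRs and 1 in a non-coding exon. The plot of promoter peaks around the start shows the downstream displacement gene by gene.

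**Figure D1:**
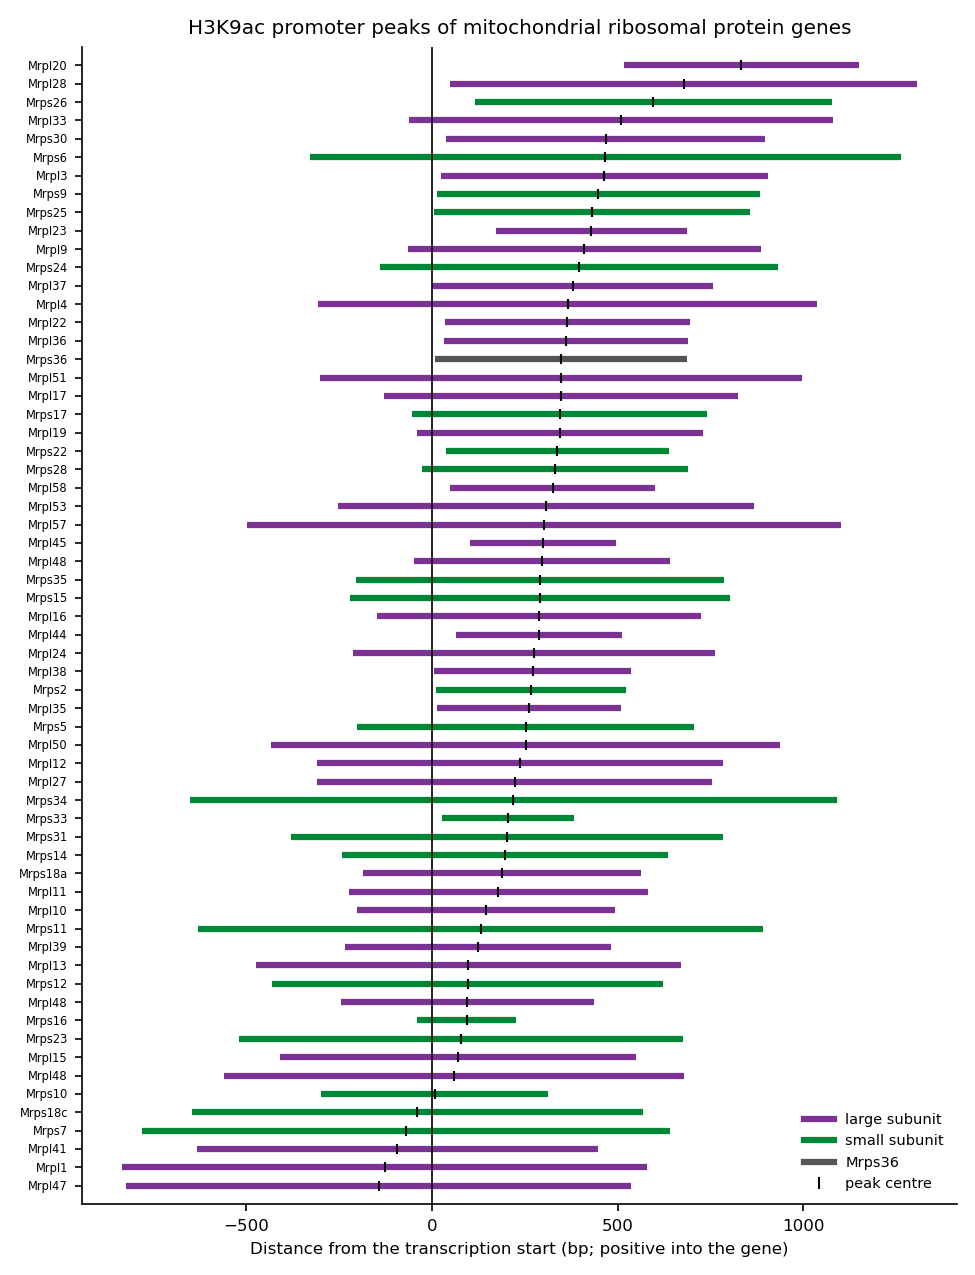
H3K9ac promoter peaks of mitochondrial ribosomal protein genes, drawn as horizontal bars from the first to the last base of each peak against distance from the transcription start in bp (positive into the gene), with a tick at the peak centre. Purple bars are large subunit genes, green bars small subunit genes and the grey bar Mrps36, and 57 of the 62 centres lie to the right of the start.

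The other 16 peaks were distal. The centre lay inside the member gene itself for 7 of them, only inside another gene for 7, and in no gene for 2. The distal peaks of Mrpl33, Mrpl57 and Mrps10, and a peak given to Mrps23, lay in Rbks, Zdhhc20, Trerf1 and Cuedc1, so they belong to a member solely as the gene with the nearest start. Mrpl14 and Mrps27 had a distal peak only. A symbol shows which start is nearest, and does not show which gene a distal peak acts on.

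RefSeq lists 78 coding genes with such symbols, and 16 of them had no row. For 8 of the 16 the start lay inside a peak named for another gene: Mrps21 in a peak of C920021L13Rik, Mrpl46 in that of Mrps11, Mrpl55 in that of 2610507I01Rik, Mrpl40 in that of Hira, Mrpl18 in that of Tcp1, Mrps18b in that of Ppp1r10, Mrpl21 in that of Ighmbp2 and Mrpl49 in that of Fau. The remaining genes are not analysed here.

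Several member promoters lie beside the start of a neighbour. Of the 23 member peaks annotated as promoter, 14 (60.9%) cite a transcript of a different gene, against 807 of 2882 such peaks in the whole table, a difference for which no test was made. The partners include Ndufb5, a complex I subunit, at Mrpl47, Sars2, the mitochondrial seryl-tRNA synthetase, at Mrps12, and Mrpl46, another large subunit protein, at Mrps11. The others were 4930473A02Rik at Mrps26, Eme1 at Mrpl27, Eme2 at Mrps34, Zfp189 at Mrpl50, Mtbp at Mrpl13, Ncapd2 at Mrpl51, Zfp661 at Mrps5, Helq at Mrps18c, Cyb5rl at Mrpl37, Lrrc46 at Mrpl10 and Ska3 at Mrpl57. In 8 of the 54 promoter peaks whose gene has a start in the RefSeq table, a coding gene on the opposite strand also had its start. The starts were 42 bp (Mrps11 and Mrpl46) to 308 bp (Mrpl47 and Ndufb5) apart, with a median of 120 bp. Signal at such a peak cannot be assigned to 1 of the 2 genes. The Mrps34 peak holds the start of Eme2 but could not be counted, as Mrps34 has no start in that table. The 14 peaks above were set apart by an annotation as promoter together with the transcript cited. The Mrps7 promoter peak also holds the start of Gga3 on the opposite strand, but cites a transcript of Mrps7 and stays outside them. The promoter peaks of Mrpl12, Mrpl28 and Mrpl53 stay outside too, as they are annotated at transcription ends, of Hgs, Pgap6 and Ccdc142. The 14 peaks had a median width of 1178.5 bp and a median level of 67.6 CPM per kb. In the other 48 promoter peaks these were 856 bp and 59.5 CPM per kb.

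The libraries held 1173016, 679938 and 685131 counts over all peaks in CSE-KO and 676056, 313610 and 610922 in WT, so the shallowest CSE-KO library was about as deep as the deepest WT library, and 1 count was worth 0.846 to 3.23 CPM. CPM here is the count scaled to 1000000 per library after TMM. No row names Cth (0 rows), so the targeted gene does not check the labels. As a check of the labelled cell type, 14 of 15 endothelial marker genes had a peak, against 5 of 10 epithelial, 1 of 10 immune and 1 of 10 fibroblast and mural genes. Summed endothelial marker signal was 2683 to 2994 CPM in CSE-KO and 2906 to 3122 CPM in WT, and epithelial signal was 290 to 332 CPM in CSE-KO and 320 to 350 CPM in WT. The column names of the other deposited values carry a different numeric prefix for each group, and any batch it stands for cannot be told apart from genotype. In bulk cells, a shift in cell make-up and a change of the mark per cell cannot be told apart either.

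Member promoters carried an intermediate level of H3K9ac. Levels averaged over the groups ran from 40.2 to 105 CPM per kb of peak, with a median of 62.2, against 59.7 for all tested promoter peaks. Members stood at percentiles 11.5 to 94.6 of all tested promoter peaks, with a median of 54.6, and 34 of the 62 promoter peaks were above the median of promoters. Respiratory chain genes (Nduf, Cox, Uqcr, Sdh and Atp5 symbols) had a median of 67.6 CPM per kb, and genes of the cytosolic ribosome (Rpl and Rps symbols) had 101.9 CPM per kb. Across the libraries of a group, the median coefficient of variation of member promoters was 17.0% in CSE-KO and 20.3% in WT, against 16.3% in CSE-KO and 20.8% in WT for all promoter peaks.

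**Figure D2:**
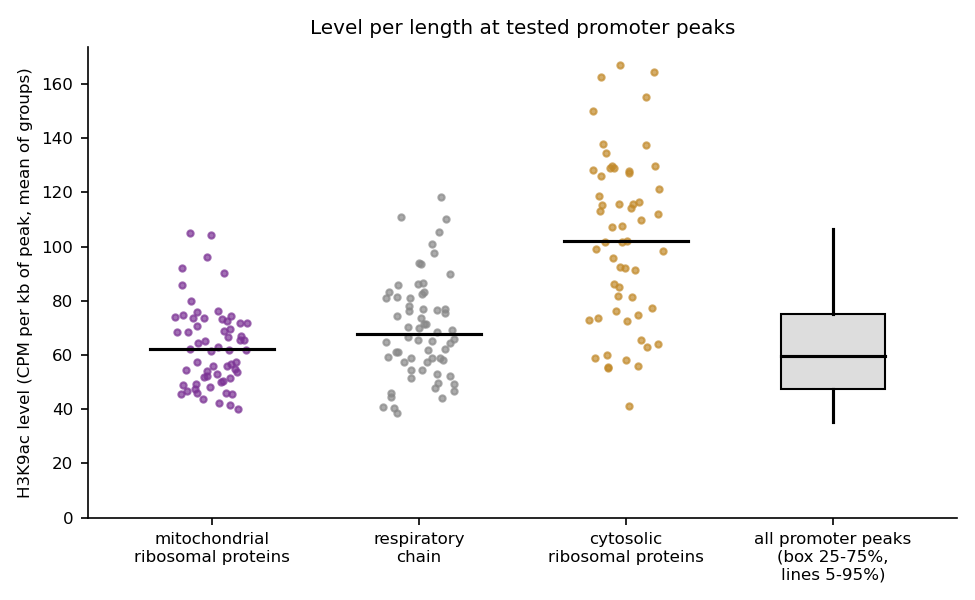
H3K9ac level in CPM per kb of peak, averaged over the CSE-KO and WT groups, for each tested promoter peak (points) of mitochondrial ribosomal proteins, respiratory chain genes and cytosolic ribosomal proteins, with a black line at each median, beside all promoter peaks (box, percentiles 25 to 75; lines, percentiles 5 to 95). Member medians sit at 62.2, close to the 59.7 of all promoters, and cytosolic ribosomal protein genes sit higher, at 101.9.

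Averaged over the libraries of both groups, the 5 highest promoter levels belonged to members of both subunits. Mrpl3, uL3m of the large subunit, whose bacterial relative reaches towards the peptidyl transferase centre, had 105 CPM per kb. Mrps9, uS9m of the small subunit head, had 104 CPM per kb. The promoter peak of Mrpl48 with its centre at 296 bp had 96.0 CPM per kb, Mrpl47 had 91.9 and Mrps11 had 90.1. The lowest were Mrps35 (40.2 CPM per kb), Mrpl4, a protein of the exit tunnel wall (41.7), Mrps36 (42.2), Mrpl15 (43.8) and Mrps26 (45.4). Mrps36, despite its symbol, is known as a subunit of the 2-oxoglutarate dehydrogenase complex. The order pools the groups and differs between them. Mrpl3 had 108.9 ± 8.75 CPM in CSE-KO and 76.4 ± 7.94 CPM in WT over its 881 bp, and Mrps9 had 78.5 ± 8.15 CPM in CSE-KO and 103.0 ± 8.12 CPM in WT over 870 bp (SD, n = 3 each). Per kb, Mrpl3 led in CSE-KO and Mrps9 in WT. Mrps14 took the place of Mrpl47 among the 5 highest in CSE-KO, and Mrpl58 that of Mrpl3 in WT.

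The comparison of genotypes asked whether H3K9ac at these genes differs between CSE-KO, Cre-positive and WT, Cre-negative libraries. Loss of CSE and presence of Cre go together in these groups and cannot be told apart. No member peak passed the test. Most sat within 0.5 of no change on the log2 scale, and more were below 0 than above it. The 2 members with the smallest p were Mrps26, lower in all CSE-KO libraries, and Mrpl3, higher in all of them, and neither held after adjustment over all peaks.

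With edgeR's quasi-likelihood test and Benjamini-Hochberg adjustment, 0 of 75 tested member peaks were called at 0.05, against 14 of 16134 peaks (0.0868%) in the whole table, 4 higher and 10 lower. The smallest adjusted p of a member was 0.637. At an unadjusted p below 0.05, edgeR had 7 member peaks, 3 higher and 4 lower, against 7.08% of all peaks. The Wald test of DESeq2 had 2 member peaks at that level, against 3.51% of all peaks, and limma's voom had 7, against 7.75% of all peaks. Both called 0 members after adjustment (smallest adjusted p 1.00 with DESeq2 and 0.533 with voom). The 7 of 75 is near the share in the whole table. The 3 members that a filter on low counts removed were distal peaks of Mrpl15, Mrps31 and Mrps9.

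The fitted log2 fold change (CSE-KO over WT) was below 0 at 46 of the 75 peaks, against 50.1% of all tested peaks. Among member promoter peaks it was above 0 at 24 of 62, against 47.0% of all tested promoter peaks. The member median was -0.07, beside -0.00034 for all peaks and -0.02 for all promoter peaks, with values from -0.75 to 1.06 and a median SE of 0.29. It was -0.01 without WT replicate 1, with 50.7% of member peaks below 0, and -0.14 without WT replicate 3. Fold changes of 63 members (84.0%) lay within 0.5 of 0, against 83.5% of all peaks. Groups did not overlap, with CSE-KO higher, at 4 tested members, against 6.09% of all peaks, and with CSE-KO lower at 8, against 6.90%.

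**Figure D3:**
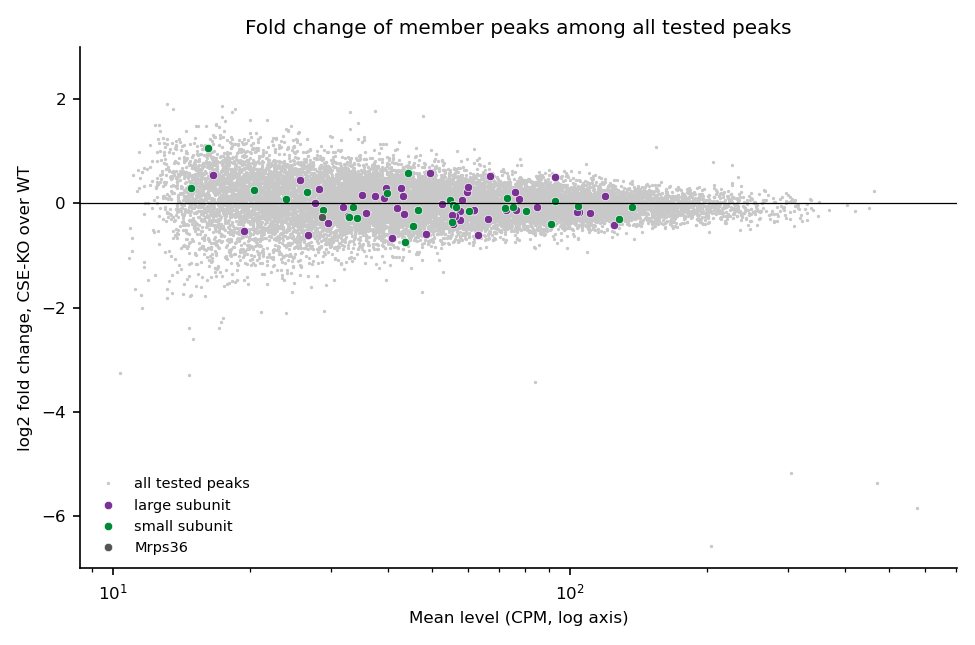
Log2 fold change (CSE-KO over WT) against mean level in CPM (log axis) for every tested peak (grey), with member peaks of the large subunit in purple, of the small subunit in green and Mrps36 in dark grey. The 75 members lie between -0.75 and 1.06, inside the cloud of other peaks of like level.

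Added over all 78 peaks, the members had 4065, 4207 and 4212 CPM in CSE-KO libraries 1 to 3, against 4466, 4353 and 4247 CPM in WT libraries 1 to 3. Every CSE-KO sum was below every WT sum, and the same held for all promoter peaks of the table, which summed to 590342 to 592437 CPM in CSE-KO and 597411 to 608038 CPM in WT. It held for all peaks together too, at 992255 to 994008 CPM in CSE-KO and 1.00252e+06 to 1.01342e+06 CPM in WT. The sum over all peaks differs between libraries through the TMM factor alone. The mean was 4161 ± 83.7 CPM in CSE-KO and 4356 ± 110 CPM in WT (SD, n = 3 each), a difference of -194 CPM. As a share of raw counts the members took 0.409%, 0.423% and 0.424% in CSE-KO, against 0.446%, 0.430% and 0.422% in WT, where the groups overlap. CSE-KO library 1, the deepest, gave the lowest value of the 6 at 16 peaks and the highest at 5. WT library 2, the shallowest, gave the lowest at 21 and the highest at 24, the most of any library for each. The part of depth in these extremes and in the sums was not tested.

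The 47 large subunit peaks summed to 2583 ± 110 CPM in CSE-KO and 2654 ± 36.2 CPM in WT. Of the 46 tested, 27 were below 0, and their median was -0.11 on the log2 scale. The 30 small subunit peaks summed to 1552 ± 25.9 CPM in CSE-KO and 1670 ± 81.8 CPM in WT, and 18 of 28 tested peaks were below 0, with a median of -0.07. By origin, 26 of 41 peaks of proteins with a bacterial counterpart were below 0 (median -0.09), and 19 of 33 peaks of mitochondria-specific proteins (median -0.07). The differences between these medians were not tested. The plot of fold changes by subunit and origin shows both signs in each of the 4 classes.

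**Figure D4:**
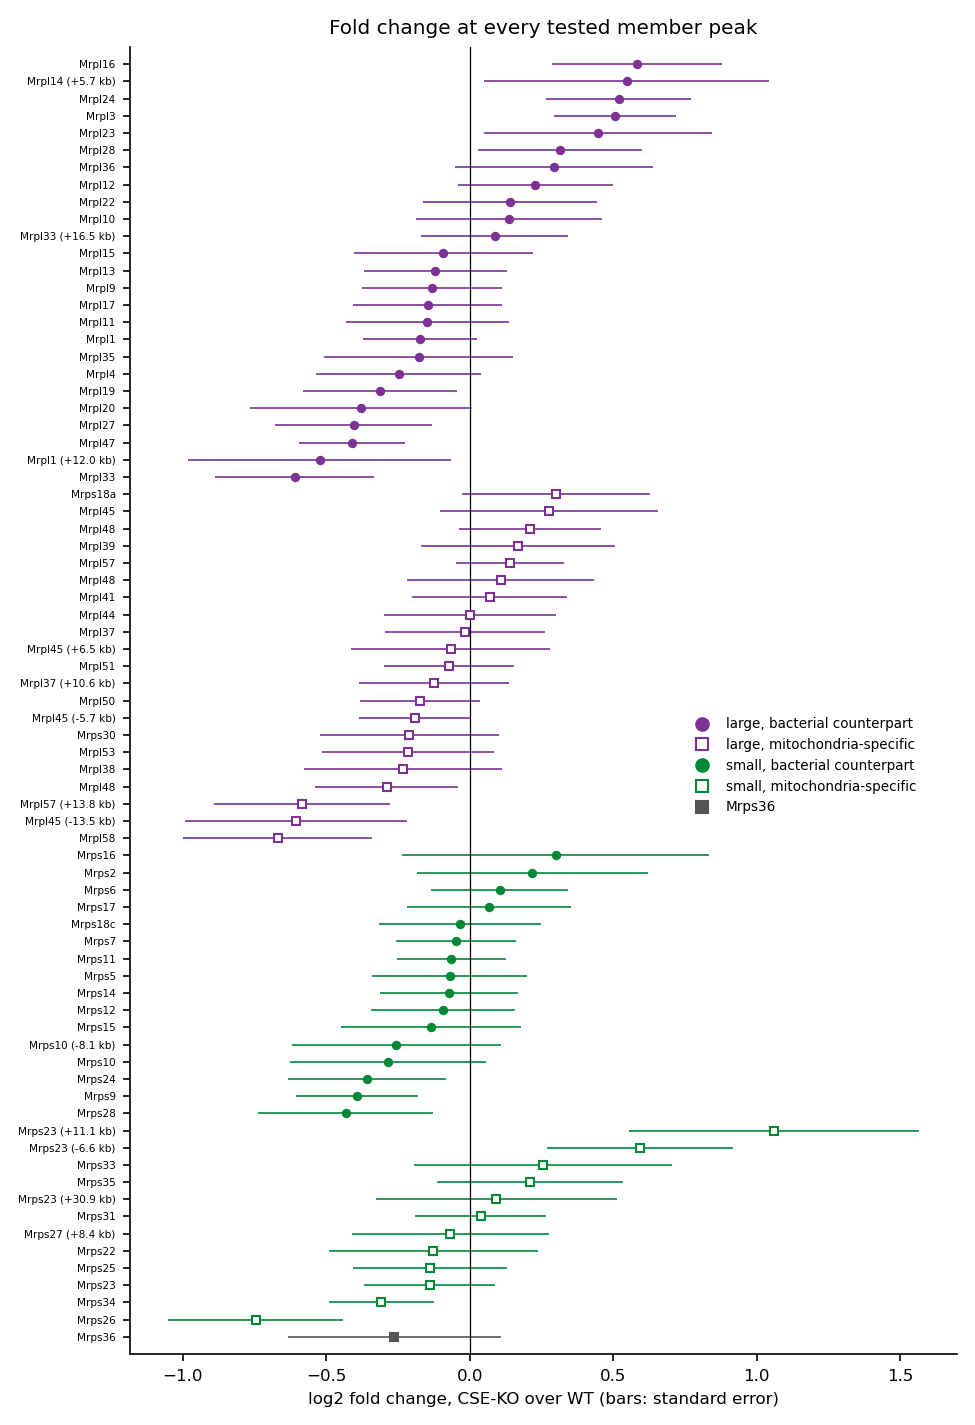
Log2 fold change (CSE-KO over WT) of each of the 75 tested member peaks, with bars for the standard error, by subunit (purple large, green small, grey Mrps36) and origin (filled circles, bacterial counterpart; open squares, mitochondria-specific). Distal peaks carry their distance from the start in kb, and values run from -0.75 at Mrps26 to 1.06 at a distal peak of Mrps23.

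Among large subunit proteins with a bacterial counterpart, Mrpl3 had 118, 107 and 101 CPM in CSE-KO libraries 1 to 3, against 72.7, 71.1 and 85.6 CPM in WT libraries 1 to 3. All CSE-KO values were above all WT values. The log2 fold change was 0.51 (SE 0.21, edgeR adjusted p = 0.637). Its peak, chr9:105053292-105054172, has its centre in the first intron. Mrpl24, uL24m at the tunnel exit (chr3:87919332-87920306), had 81.2, 73.1 and 79.7 CPM in CSE-KO, against 54.9, 64.6 and 47.7 CPM in WT. The groups did not overlap either (log2 fold change 0.52, SE 0.25, edgeR adjusted p = 0.690).

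Mrpl16, uL16m near the tRNA sites of the large subunit (chr19:11770269-11771140), had 73.6, 55.6 and 52.1 CPM in CSE-KO, against 44.5, 19.4 and 51.01 CPM in WT. The lowest CSE-KO value was just above the highest WT value, and WT library 2 stood far below the rest. Its log2 fold change was 0.58 (SE 0.30, edgeR adjusted p = 0.721), and 0.36 without WT library 2.

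Other proteins of this class were lower. Mrpl47, uL29m beside the tunnel exit (chr3:32736219-32737578), had 117, 95.02 and 106 CPM in CSE-KO, against 138, 165 and 130 CPM in WT. All CSE-KO values were below all WT values, at a peak shared with the complex I gene Ndufb5. The log2 fold change was -0.41 (SE 0.19, edgeR adjusted p = 0.669). The promoter peak of Mrpl33, a bL33m gene (chr5:31613889-31615031), had 32.2, 58.5 and 59.4 CPM in CSE-KO, against 74.1, 90.5 and 62.5 CPM in WT. CSE-KO library 1 was far below the others, and the groups did not overlap (log2 fold change -0.61, SE 0.28, edgeR adjusted p = 0.670). Without CSE-KO library 1 the log2 fold change was -0.33. The second Mrpl33 peak, 16500 bp downstream in Rbks, had 77.0, 102 and 69.5 CPM in CSE-KO, against 99.4, 29.1 and 87.2 CPM in WT, which overlap (log2 fold change 0.09, SE 0.25).

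Among mitochondria-specific proteins of the large subunit, Mrpl58 (chr11:115403801-115404353) had 31.3, 19.0 and 44.9 CPM in CSE-KO, against 41.5, 42.01 and 65.8 CPM in WT. It encodes a peptidyl-tRNA hydrolase that frees stalled mitochondrial ribosomes and is also a fixed part of them. CSE-KO library 3 lay above the lower WT libraries, so the groups overlapped (log2 fold change -0.67, SE 0.33, edgeR adjusted p = 0.702). It was -0.44 without CSE-KO library 2 and -0.40 without WT library 3. Mrpl57 had a promoter peak with 133, 133 and 109 CPM in CSE-KO, against 107, 113 and 122 CPM in WT. Its distal peak at 13820 bp, inside Zdhhc20 (chr14:57839849-57840270), had 32.2, 30.7 and 53.6 CPM in CSE-KO, against 68.2, 64.6 and 41.1 CPM in WT. The peaks of this gene had fold changes of opposite sign and overlapping groups at both: 0.14 (SE 0.19, edgeR adjusted p = 0.915) at the promoter and -0.58 (SE 0.31, adjusted p = 0.731) at the distal peak.

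Small subunit members with the smallest p included both origins. Mrps26, mitochondria-specific (chr2:130563873-130564833), had 38.1, 33.6 and 24.6 CPM in CSE-KO, against 54.9, 58.2 and 52.7 CPM in WT. The highest CSE-KO value was well below the lowest WT value, and the log2 fold change of -0.75 was the lowest of all tested members (SE 0.31, edgeR adjusted p = 0.637). The authors' annotation cites the non-coding 4930473A02Rik at this peak. Mrps9, with a bacterial counterpart (chr1:42851247-42852116), had 87.2, 77.5 and 71.0 CPM in CSE-KO, against 107, 93.7 and 109 CPM in WT. Again the groups did not overlap (log2 fold change -0.39, SE 0.21, edgeR adjusted p = 0.740). The distal peak of Mrps9, 31200 bp downstream, was too low to test, at 11.8, 19.0 and 5.79 CPM in CSE-KO and 22.2, 12.9 and 9.87 CPM in WT.

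Mrps23, a mitochondria-specific protein of the small subunit, had 4 peaks. Its promoter peak had 74.5, 83.3 and 73.9 CPM in CSE-KO, against 101, 71.1 and 77.3 CPM in WT, which overlap (log2 fold change -0.14, SE 0.23). The intergenic peak at 11119 bp (chr11:88215276-88215739) had 20.3, 30.7 and 15.9 CPM in CSE-KO, against 11.9, 6.46 and 11.5 CPM in WT. The groups did not overlap there, and the log2 fold change of 1.06 was the largest of all tested members, on few counts (SE 0.51, edgeR adjusted p = 0.688). A further peak, in Cuedc1, is at -6560 bp by the deposited distance, while its centre lies 16841.5 bp from the RefSeq start of Mrps23. This peak had 42.3, 45.3 and 69.5 CPM in CSE-KO, against 23.7, 48.5 and 36.2 CPM in WT, with overlapping groups (log2 fold change 0.59, SE 0.32). That value was 0.35 without CSE-KO library 3 and 0.33 without WT library 1. The peak at 30881 bp had 19.5, 19.0 and 37.7 CPM in CSE-KO, against 29.7, 16.2 and 21.4 CPM in WT (log2 fold change 0.09, SE 0.42).

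**Figure D5:**
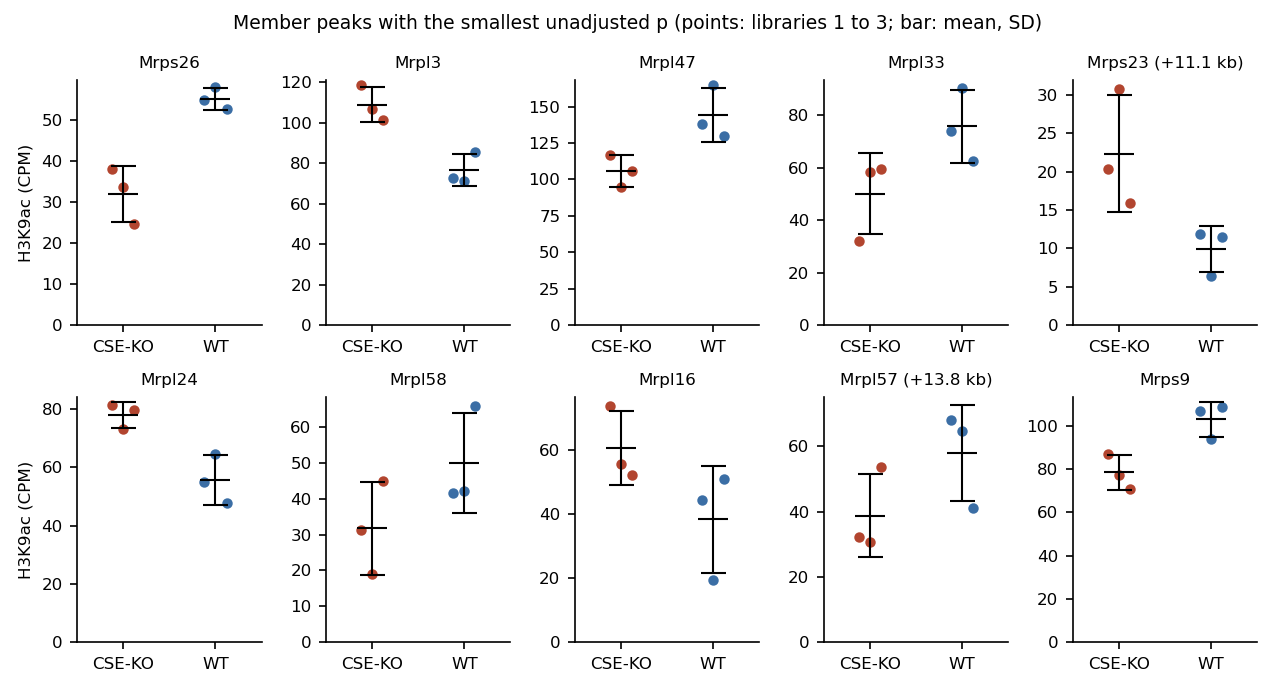
H3K9ac in CPM in each library (points, libraries 1 to 3 of a group) at the 10 member peaks with the smallest unadjusted p, CSE-KO at the left (red) and WT at the right (blue) of each panel, with a bar at the mean and whiskers of 1 SD (n = 3 each). Groups do not overlap at Mrps26, Mrpl3, Mrpl47, Mrpl33, Mrpl24, Mrpl16, Mrps9 and the distal Mrps23 peak, and they overlap at Mrpl58 and the distal Mrpl57 peak.

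Mrpl45, a mitochondria-specific protein that sits at the tunnel exit and ties the ribosome to the inner membrane, also had 4 peaks, and its strongest was not at the start. The peak at -5717 bp (chr11:97309444-97310555), intergenic in the deposited annotation, has its centre in Gm31005 of RefSeq. It had 95.6, 101 and 113 CPM in CSE-KO, against 111, 129 and 115 CPM in WT. Its level of 99.7 CPM per kb exceeded the 71.7 of the promoter peak. The promoter peak, which begins after the window printed above, had 23.7, 33.6 and 36.2 CPM in CSE-KO, against 22.2, 25.9 and 27.97 CPM in WT. Groups overlapped at both peaks (log2 fold changes -0.19, SE 0.19, and 0.28, SE 0.38). The peak at -13477 bp, its centre also in Gm31005, had 24.5, 19.0 and 18.8 CPM in CSE-KO, against 32.6, 35.5 and 29.6 CPM in WT. There the groups did not overlap (log2 fold change -0.61, SE 0.39, edgeR adjusted p = 0.775). The peak at 6517 bp, in an intron of the gene, had 35.5, 26.3 and 31.9 CPM in CSE-KO, against 31.1, 29.1 and 37.8 CPM in WT.

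Mrpl48, also mitochondria-specific, had 3 promoter peaks at different starts. The peak centred at 296 bp had 61.8, 65.8 and 53.6 CPM in CSE-KO, against 80.1, 54.9 and 80.6 CPM in WT (log2 fold change -0.29, SE 0.25). The peak at 59 bp had 60.1, 95.02 and 97.03 CPM in CSE-KO, against 86.0, 45.2 and 72.4 CPM in WT (log2 fold change 0.21, SE 0.25), and its centre also lies in Rab6a. The groups overlapped at both, with opposite signs of the fold change. The peak at 95 bp had 30.5, 52.6 and 40.6 CPM in CSE-KO, against 44.5, 35.5 and 31.3 CPM in WT, and overlapped too.

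In Mrpl1, Mrpl15, Mrps9 and Mrps31 the distal peak was the weaker. Mrpl1, uL1m of the mobile L1 stalk, had 103, 90.6 and 98.5 CPM in CSE-KO, against 97.9, 123 and 115 CPM in WT at the promoter. Its peak at 12042 bp, over an ERVL-MaLR repeat, had 13.5, 16.1 and 20.3 CPM in CSE-KO, against 37.1, 12.9 and 16.5 CPM in WT, and WT library 1 alone stood out. Without WT replicate 1 the log2 fold change of that peak was 0.12 in place of -0.52. Mrpl37, a mitochondria-specific protein, had similar totals at both peaks: 53.3, 49.7 and 53.6 CPM in CSE-KO and 43.004, 51.7 and 64.2 CPM in WT at the promoter, and 67.7, 45.3 and 62.3 CPM in CSE-KO and 63.8, 71.1 and 60.9 CPM in WT at 10585 bp. Groups overlapped at both peaks of Mrpl1 and at both peaks of Mrpl37.

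Mrps10, uS10m of the small subunit head, had 31.3, 30.7 and 29.0 CPM in CSE-KO, against 29.7, 45.2 and 39.5 CPM in WT at the promoter. Its peak at -8101 bp, in the last exon of Trerf1, had 28.8, 33.6 and 24.6 CPM in CSE-KO, against 22.2, 51.7 and 36.2 CPM in WT. Both overlapped, with WT library 2 the highest at each. Mrpl15, uL15m, had 38.9, 52.6 and 33.3 CPM in CSE-KO, against 53.4, 29.1 and 44.4 CPM in WT at the promoter, and Mrps31, mitochondria-specific, had 88.0, 87.7 and 98.5 CPM in CSE-KO, against 75.6, 139 and 69.1 CPM in WT. These promoters overlapped and had log2 fold changes of -0.09 (SE 0.31) and 0.04 (SE 0.23).

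The distal peaks of Mrpl15 and Mrps31 were removed by the filter and carry no test. That of Mrpl15, at 10294 bp in the last exon, had 11.001, 20.5 and 10.1 CPM in CSE-KO, against 7.41, 3.23 and 0 CPM in WT, so CSE-KO was higher in every library. That of Mrps31, at 32253 bp, had 8.46, 2.92 and 5.79 CPM in CSE-KO, against 14.8, 12.9 and 18.1 CPM in WT, so CSE-KO was lower in every library. Each value rests on few counts.

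The remaining high and low promoters showed no separation. Mrps11, uS11m of the platform, had 150, 145 and 101 CPM in CSE-KO, against 151, 168 and 107 CPM in WT, and library 3 was the lowest of each group (log2 fold change -0.06, SE 0.19). Mrps35 had 41.5, 29.2 and 57.9 CPM in CSE-KO, against 37.1, 35.5 and 37.8 CPM in WT, a far wider spread in CSE-KO. Mrpl4 had 44.9, 57.01 and 47.8 CPM in CSE-KO, against 41.5, 87.2 and 57.6 CPM in WT, and Mrps36 had 27.1, 27.8 and 23.2 CPM in CSE-KO, against 37.1, 32.3 and 24.7 CPM in WT. Their log2 fold changes were 0.21 (SE 0.32) for Mrps35, -0.25 (SE 0.29) for Mrpl4 and -0.26 (SE 0.37) for Mrps36.

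A further 3 promoters were lower in every CSE-KO library than in any WT library and are named after their values were seen. Mrps34, whose promoter peak is shared with Eme2, had 108, 118 and 114 CPM in CSE-KO, against 141, 162 and 125 CPM in WT (log2 fold change -0.31, SE 0.18, edgeR adjusted p = 0.766). Mrpl19 had 47.4, 54.1 and 52.1 CPM in CSE-KO, against 66.7, 71.1 and 54.3 CPM in WT, where the groups nearly met. Mrpl38 had 27.9, 32.2 and 30.4 CPM in CSE-KO, against 32.6, 35.5 and 37.8 CPM in WT, again with almost touching groups.

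At the peaks annotated as promoter that cite another gene's transcript, 12 of 14 fold changes were below 0, against 26 of 48 at the other member promoters. Both sets had a median of -0.08. The 48 include Mrps7, and also Mrpl12 (0.23), Mrpl28 (0.31) and Mrpl53 (-0.21), whose peaks are annotated at transcription ends of other genes. The lowest of the 14 were those of Mrps26, Mrpl47 and Mrpl27 (-0.40), and those of Mrpl10 and Mrpl57 were above 0, at 0.14 each. The difference between these shares was not tested.

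Other genes of mitochondrial translation were read from lists of mitoribosome proteins with other symbols, translation factors, and assembly and rRNA-modifying factors. Of their 41 peaks in 34 genes, 39 were tested, and edgeR called 0. At an unadjusted p below 0.05, 2 were higher and 1 was lower. The fitted fold change was below 0 at 18 of the 39, with a median of 0.08. In these peaks the sign split differed in direction from that of the members, without a test of the difference.

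The mitoribosome proteins with other symbols had a row for 4 of 6 symbols, and Ict1, without one, is an older name of Mrpl58. Chchd1 had 125, 134 and 94.1 CPM in CSE-KO, against 126, 149 and 161 CPM in WT (log2 fold change -0.29, SE 0.18). Dap3, a GTP-binding protein of the small subunit, had 106, 107 and 112 CPM in CSE-KO, against 97.9, 93.7 and 105 CPM in WT, with the CSE-KO values just above (log2 fold change 0.11, SE 0.20, edgeR adjusted p = 0.940). Aurkaip1 and Gadd45gip1 had overlapping groups and log2 fold changes of -0.22 (SE 0.25) and -0.29 (SE 0.32).

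Assembly factors had 17 of 24 genes with a row and held all 3 peaks of the translation lists with an unadjusted p below 0.05. Mterf4, which guides a methyltransferase to the large subunit, averaged 39.4 ± 2.28 CPM in CSE-KO and 20.8 ± 7.64 CPM in WT (SD, n = 3 each) (log2 fold change 0.82, SE 0.36, edgeR adjusted p = 0.658). A peak 11645 bp from the start of Mrm3, a methyltransferase of the large rRNA, had 28.8, 26.3 and 27.5 CPM in CSE-KO, against 17.8, 12.9 and 8.23 CPM in WT (log2 fold change 1.06, SE 0.45, edgeR adjusted p = 0.637). Mettl17, a factor for small subunit assembly, had 24.5, 8.77 and 26.1 CPM in CSE-KO, against 26.7, 38.8 and 44.4 CPM in WT (log2 fold change -0.83, SE 0.40, edgeR adjusted p = 0.688). Groups did not overlap at these 3 peaks, and none passed the adjusted threshold. A second Mrm3 peak, at 48980 bp, had 76.2, 71.6 and 78.2 CPM in CSE-KO, against 56.3, 42.01 and 67.5 CPM in WT (log2 fold change 0.40, SE 0.25).

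Translation factors had 13 of 15 genes with a row, 13 tested peaks and 0 at an unadjusted p below 0.05, with a median of 0.08. The smallest p belonged to Mrrf, the ribosome recycling factor (log2 fold changes 0.20, SE 0.21, at the promoter and 0.27, SE 0.32, at -8047 bp), Mtif2, initiation factor 2 (0.17, SE 0.23), and Mtrf1l, a release factor (-0.17, SE 0.23). Mitochondrial transcription had 3 of 5 genes with a row. Tfam, which packages and transcribes mitochondrial DNA, had 29.6, 32.2 and 39.1 CPM in CSE-KO, against 43.004, 29.1 and 18.1 CPM in WT, and Tfb2m and Tefm overlapped likewise, with log2 fold changes of 0.13 (SE 0.36) for Tfam, -0.06 (SE 0.24) for Tfb2m and 0.02 (SE 0.27) for Tefm.

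Regulators of these genes had 8 of 10 with a row, and 7 of 10 tested peaks were below 0 (median -0.07). Gabpa, the DNA-binding ETS subunit of GABP, had 140, 134 and 104 CPM in CSE-KO, against 151, 213 and 146 CPM in WT at its promoter. All CSE-KO values were below all WT values (log2 fold change -0.38, SE 0.18, edgeR adjusted p = 0.685). Yy1 had 119, 123 and 130 CPM in CSE-KO, against 117, 126 and 174 CPM in WT at the promoter (log2 fold change -0.18, SE 0.18), and its peak at -27825 bp had 52.5, 46.8 and 37.7 CPM in CSE-KO, against 69.7, 51.7 and 57.6 CPM in WT (log2 fold change -0.39, SE 0.28). Pprc1, a coactivator of the PGC-1 family, had a log2 fold change of -0.16 (SE 0.23), with overlapping groups, as at both Yy1 peaks.

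The gene families nearest in function gave 0 calls as well. Cytosolic ribosomal protein genes had 66 peaks of 62 genes, with 63 tested and 33 below 0, and their median was -0.03 on the log2 scale. With their higher counts the median SE was 0.18, and 61 of the 63 lay within 0.5 of 0. At an unadjusted p below 0.05 edgeR had 2 higher and 1 lower. Respiratory chain genes had 85 peaks of 69 genes, with 78 tested, 34 below 0 and a median of 0.04, and at the unadjusted level 1 was higher and 2 were lower. Summed signal was 9056 ± 449 CPM in CSE-KO and 9120 ± 62.9 CPM in WT for the cytosolic ribosome, and 5517 ± 49.9 CPM in CSE-KO and 5428 ± 226 CPM in WT for the respiratory chain (SD, n = 3 each). These differences were smaller than the larger SD of each pair, and differences between the families were not tested.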

How the data were processed

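H3K9ac CUT&RUN libraries of 6 samples, 3 CSE-KO and 3 WT, were analysed. Tools listed in the submitters' processing notes are featureCounts, DESeq2 1.36.0, Picard 3.1.1, STAR 2.7.11a and Trimmomatic 0.39; no source names the peak caller. The deposited table gives, per the file headers, a raw read count per peak and library, and the counts alone were used. Normalized and RPKM values, 12 columns, were not used. The notes name mm39, but coordinates follow GRCm38: 2845 of 2853 promoter rows (99.7%) lie within 1 kb of their gene on GRCm38.p6.

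All 17901 peaks were fitted in R 4.3.3 with edgeR 4.0.16. Its filterByExpr (minimum count 10) kept 16134 and removed 1767. The two-sided quasi-likelihood test compared the groups after TMM scaling, with no covariate, and p-values were adjusted by Benjamini-Hochberg over every tested peak (threshold 0.05). The procedure was tested on simulated data. Standard errors were derived from the F statistic of that test. CPM values are scaled over all peaks, and levels of different genes were compared per kb of peak. An exact permutation test of 3 against 3 cannot go below 0.10, so none was used. Replicates differed by more than sampling noise in all pairs of a group (1.87 to 2.15 for the chi-square statistic over its degrees of freedom). Alternatives were RLE factors, library size alone, no filter, only peaks averaging at least 50 counts, DESeq2 1.42.0, voom (limma 3.58.1), a replicate block, and each library left out. Peaks described singly are the 10 members with the smallest p, the 5 highest and 5 lowest promoters per kb, all peaks of genes with 2 or more, and up to 4 peaks per pathway list with the smallest p. The members and the lists were chosen with earlier results of these data known. Promoter sequences and gene starts are those of RefSeq, and distances of peaks from a start are those of the deposited annotation.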

Additional observations from a re-analysis of the deposited data

How the results depend on the processing

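No member peak and no peak of the mitochondrial translation lists was called under any setting run. The 14 calls over all peaks became 8 with a mean count of 50 or more (3 higher, 5 lower, among 4610 peaks) and 7 with DESeq2. With 1 library left out there were 6 to 13, fewest without CSE-KO replicate 1. Why the number of calls differed between settings was not tested. Libraries of the same replicate number showed no clear sign of pairing, though small correlations cannot exclude it (correlations of deviations 0.064, 0.013 and 0.0077). The fit with a replicate block gave 15 calls (6 higher, 9 lower) and 0 members. The member median of the log2 fold change stayed below 0 in all settings, from -0.14 (without WT replicate 3) to -0.01 (without WT replicate 1), and the summed member difference ranged from -258 to -139 CPM with 1 library left out and was -134 CPM with library size alone. Of 34 member peaks described singly, the Mrpl37 promoter peak (379 bp) changed sign with library size alone (0.0021), voom (0.0016) and the replicate block (0.0058), and the Mrps23 peak at 30881 bp with voom (-0.047). With 1 library left out, log2 fold changes that crossed 0 ranged from -0.75 to 0.12 at Mrpl1 (12042 bp), -0.27 to 0.11 at Mrpl15 (70 bp), -0.18 to 0.36 at Mrpl33 (16500 bp), -0.26 to 0.019 at Mrpl37 (10585 bp), -0.18 to 0.17 at Mrpl37 (379 bp), -0.49 to 0.00062 at Mrpl4, -0.18 to 0.054 at Mrpl45 (6517 bp), -0.10 to 0.31 at Mrpl48 (95 bp), -0.25 to 0.086 at Mrps11, -0.22 to 0.040 at Mrps23 (79 bp), -0.27 to 0.36 at Mrps23 (30881 bp), -0.14 to 0.33 at Mrps31 (202 bp) and -0.033 to 0.40 at Mrps35. The cause of these changes was not tested, and none of these peaks was called. With a median SE of 0.29 per peak and no input library used here, small changes at single members were not detectable at this depth.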
